A study of Mus musculus with 3 samples.

Results

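The Nr4a nuclear receptors Nr4a1, Nr4a2 and Nr4a3 were described across the cell classes of the mouse nucleus accumbens. They were found by symbol, and all 3 are among the 28001 features counted in each cell. Single cells came from 3 libraries of 1 group. The strain label is Thy1::ChR2, the treatment label gives FLiCRE labelling while ChR2 was stimulated by light in the nucleus accumbens, and the tissue was a coronal dissection of 400 um. ChR2 is a light-gated cation channel, which the Thy1 promoter expresses in subsets of neurons, and FLiCRE turns calcium that coincides with light into a reporter RNA. The matrix counts a mCherry feature, but which transcript of the construct it reads is not given in the sources used here. All cells carry the same strain and treatment, no unstimulated animals were analysed here, and age is not given in the labels, so every comparison was made between cells of the same libraries.

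Nr4a proteins are nuclear receptors that act without a known classical hormone: their ligand pocket is filled by bulky side chains, and their activity is set mainly by how much protein the cell makes. They bind DNA as monomers at the NBRE element, as pairs, or, for Nr4a1 and Nr4a2, with the retinoid X receptors. Nr4a1 (Nur77) and Nr4a3 (NOR-1) are immediate early genes in neurons, switched on within minutes through calcium, CREB and MEF2. Nr4a2 (Nurr1) can also be induced, and it is in addition a lasting identity gene of midbrain dopamine neurons and of some deep cortical and claustral glutamatergic neurons.

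Bases upstream of the RefSeq start of each gene are shown because the 3 promoters carry the core of the CREB element, TGACG, several times. Nr4a1 (ENSMUSG00000023034) lies on the forward strand of chromosome 15, Nr4a2 (ENSMUSG00000026826) on the reverse strand of chromosome 2 and Nr4a3 (ENSMUSG00000028341) on the forward strand of chromosome 4. Sequences are from RefSeq for GRCm38.p6, read 5′ to 3′ on the strand of the gene. Capitals mark TGACG, or CGTCA where the match lies on the other strand. The Nr4a1 stretch lies inside the longest annotated model of that gene, before the start used here, and the stretches of Nr4a1 and Nr4a2 run up to the RefSeq start. The Nr4a3 stretch is the far part of its window and does not reach that start, because another annotated transcript starts in between.
Nr4a1, chr15:101266596-101266845, forward strand: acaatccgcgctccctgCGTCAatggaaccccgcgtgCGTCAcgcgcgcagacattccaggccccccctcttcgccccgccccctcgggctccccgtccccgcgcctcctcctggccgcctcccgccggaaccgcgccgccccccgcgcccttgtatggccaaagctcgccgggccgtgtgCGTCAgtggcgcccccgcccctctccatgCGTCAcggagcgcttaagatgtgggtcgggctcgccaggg
Nr4a2, chr2:57124004-57124253, reverse strand: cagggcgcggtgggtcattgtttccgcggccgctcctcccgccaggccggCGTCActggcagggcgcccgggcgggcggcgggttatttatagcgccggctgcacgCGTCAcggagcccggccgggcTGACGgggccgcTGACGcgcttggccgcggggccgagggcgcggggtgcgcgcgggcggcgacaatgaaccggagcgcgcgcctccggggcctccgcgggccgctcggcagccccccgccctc
Nr4a3, chr4:48045055-48045152, forward strand: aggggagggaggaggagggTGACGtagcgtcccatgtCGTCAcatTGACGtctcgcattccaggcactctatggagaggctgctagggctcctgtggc
Over the full windows (250 bases before to 50 after the start), each of the 3 promoters held 4 matches to TGACG on either strand. At least 1 match was found in 20.8% of the 32851 windows of the same length, and at least 4 in 0.231%. G and C made up 72.3%, 81.7% and 64.7% of the windows of Nr4a1, Nr4a2 and Nr4a3, and the 32851 windows were not matched on this. The complete palindrome TGACGTCA (1.79% of windows), the NBRE sequence AAAGGTCA (1.51%) and the CArG box bound by SRF (1.63%) were found in none of the 3 windows.

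After filtering, 9923 cells remained (2306, 5783 and 1834 in libraries 1 to 3), with 2788685, 14563414 and 6267259 UMIs. A UMI is a molecular tag that counts each captured RNA molecule once. Cells were assigned to classes by markers that include no Nr4a gene, and 26.5%, 17.9% and 14.0% of cells stayed without a class. Ppp1r1b (DARPP-32, a spiny neuron protein), which is in no gate, had 1337 to 2930 CPM (counts per 1e6 UMIs of the class) in spiny neurons and 804 to 2313 in neurons without a subclass. It had 175, 340 and 349 CPM in glutamatergic neurons and at most 265 in each of the remaining classes. As a share, 91.1% to 95.9% of spiny neurons had a Ppp1r1b UMI, but so did 28.3%, 68.7% and 79.8% of glutamatergic neurons and up to 39.7% of astrocytes, so single UMIs of an abundant gene occur across classes. Slc17a7, the vesicular glutamate transporter used in the gate itself, had one in 97.3% to 98.8% of glutamatergic neurons and in at most 7.37% of spiny neurons. The library number is that of the cell barcode and only a name, and libraries shared 13, 7 and 22 barcodes in pairs. Library 1 was the shallowest, with a median of 985.5 UMIs per cell against 2084 and 2674.

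Nr4a1 was a gene of many classes, with most of its UMIs in neurons. Of 1414 Nr4a1 UMIs in 952 cells, 25.6% lay in D1 spiny neurons, which carry the D1 dopamine receptor, and 25.6% in D2 spiny neurons. Other neurons without a subclass held 14.9% and glutamatergic neurons 8.91%. The counts were thin: 678 of the 952 positive cells had a single Nr4a1 UMI, and the highest had 10.

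D2 spiny neurons had the highest mean level of Nr4a1, with 92.0, 108 and 153 CPM in libraries 1 to 3 (118 ± 31.8, SD, n = 3). D1 spiny neurons had 87.8, 60.0 and 85.5 CPM (77.8 ± 15.4). The D2 level was close to the D1 level in library 1 and above it in libraries 2 and 3. Glutamatergic neurons had 36.8, 76.7 and 97.7 CPM (70.4 ± 30.9), within the range of the spiny neurons in libraries 2 and 3 and below it in library 1. Nr4a1 was not restricted to neurons. Microglia, the resident brain macrophages, had 61.3, 43.3 and 142 CPM (82.1 ± 52.4). Myeloid cells with MHC class II had 40.6, 67.1 and 158 CPM (88.7 ± 61.8), but in library 3 a single cell held 10 of their 14 UMIs. Vascular classes were lower. Mural cells had 27.8, 55.7 and 68.5 CPM, and endothelial cells 15.6, 13.0 and 53.6 CPM, where 1 cell of library 3 held 8 of 14 UMIs. Oligodendrocytes (11.03 ± 2.38 CPM) and astrocytes (2.14, 13.3 and 11.5 CPM) had the lowest means of the 10 classes with at least 10 cells in every library. In the order of the means every class overlapped with the next over the 3 libraries. Interneurons were too few to be ranked. Those with Pvalb markers (9, 25 and 6 cells) had 0, 17.2 and 0 CPM of Nr4a1. Those with Sst and Npy markers (9, 36 and 10 cells) had 0, 6.63 and 55.3 CPM.

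**Figure D1:**
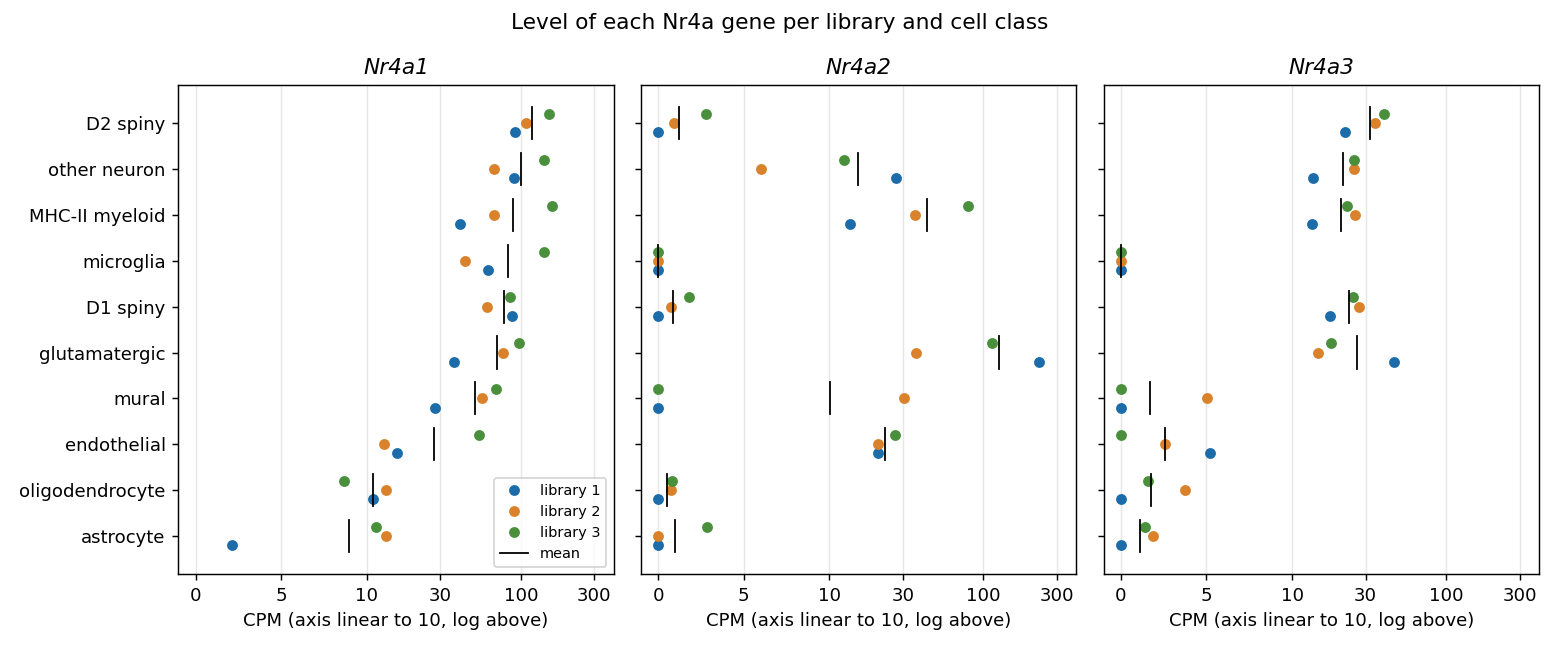
Levels of Nr4a1, Nr4a2 and Nr4a3 in CPM (horizontal axis, linear to 10 and logarithmic above) for 10 cell classes ordered by mean Nr4a1; each point is 1 library and each bar the mean of 3. Interneurons are not plotted. Nr4a1 lies between 36.8 and 158 CPM in the plotted neuron and myeloid classes and at or below 13.4 in oligodendrocytes and astrocytes. Nr4a2 has its highest mean in glutamatergic neurons, nearly level with MHC class II cells in library 2 (36.3 and 36.1 CPM). Nr4a3 is at 13.5 CPM or more in the plotted neuron classes and MHC class II cells and at 5.20 or less in the other plotted classes.

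The share of cells with a Nr4a1 UMI is given with the depth of the cells. It was 8.70%, 21.6% and 30.3% in D2 and 10.0%, 11.8% and 22.1% in D1 spiny neurons, at median depths of 1176.5, 2858 and 2470.5 UMIs (D2) and 1241.5, 2589.5 and 3112 UMIs (D1). Oligodendrocytes, taken as the background of free RNA, gave 1.22%, 3.27% and 3.29% at 952, 2153 and 4128.5 UMIs. After each cell was thinned to 1000 UMIs, the mean share was 10.4% ± 1.94 in D2, 8.38% ± 2.44 in D1, 8.45% ± 6.04 in glutamatergic neurons and 1.10% ± 0.952 in oligodendrocytes.

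Spiny neurons were compared with macroglia (astrocytes, oligodendrocytes and their precursors, OPC) in sums of counts per class and library. Nr4a1 was higher in spiny neurons by 2.21 on the log2 scale (SE 0.27, edgeR adjusted p 2.43e-11), in a comparison that called 49.7% of 10895 genes and 29.0% as higher in spiny neurons. Its difference passed in all 14 settings run, from 2.05 to 2.57. Myeloid cells were also above macroglia, by 2.45 (SE 0.35, edgeR adjusted p 5.68e-09, 30.7% of genes called and 14.4% as higher). Vascular cells were above macroglia by 1.21 (SE 0.37, edgeR adjusted p 0.0079, 26.1% called and 14.1% as higher). Without library 3 the vascular difference was 0.95 with an adjusted p of 0.37. Between glutamatergic and spiny neurons Nr4a1 differed by -0.31 (95% interval -0.84 to 0.23, edgeR adjusted p 0.559), where 15.6% of genes were called.

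Between the types of spiny neuron, Nr4a1 was lower in D1 than in D2 cells by 0.68 on the log2 scale (SE 0.29) and missed the threshold when all classes shared 1 estimate of spread (edgeR adjusted p 1, 0.486% of genes called). With only the D1 and D2 sums in the fit, the difference was -0.80 (SE 0.13, edgeR adjusted p 3.45e-07, 3.85% of 9009 genes called), and D2 was higher in 3 of 3 libraries. Nr4a3 differed by -0.43 in that fit (SE 0.20, adjusted p 0.393). These fits also differed in the genes tested and in scaling, and what moved the call was not tested. None of the 17 rapid immediate early genes tested (Fos, Egr and Jun family members, Arc and others) passed in the first fit, where Nr4a1 did not pass either. Their median there was -0.06 against 0.02 over all genes. The list is not given for the second fit, so it is not set against the Nr4a1 call.

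Nr4a3 was found in the same neurons and in MHC class II cells, and little elsewhere. Of 410 Nr4a3 UMIs in 348 cells, 35.1% lay in D1 and 26.1% in D2 spiny neurons, and 296 of the positive cells had a single UMI. Its level was 21.9, 34.3 and 39.4 CPM in D2 (31.9 ± 8.98), and 17.6, 27.3 and 24.9 CPM in D1 spiny neurons (23.3 ± 5.09). Glutamatergic neurons had 46.0, 14.8 and 18.0 CPM, where the value of library 1 is 5 UMIs in 53 cells. The MHC class II cells had 13.5, 25.8 and 22.6 CPM, from 9 cells with 1 UMI each, while microglia had 0 UMIs in 210 cells. These zeros allow up to 8.11%, 2.46% and 5.88% of microglia with a UMI in libraries 1 to 3, a limit that covers counting error only. Below the MHC class II cells the order broke: the next class, endothelial cells, had 5.20, 2.60 and 0 CPM and did not overlap with it. Oligodendrocytes had 0, 3.73 and 1.58 CPM, and astrocytes 0, 1.90 and 1.44. Of the few interneurons, those with Pvalb markers had 0 Nr4a3 UMIs. Those with Sst and Npy markers had 0, 6.63 and 18.4 CPM, from 0, 1 and 1 UMIs.

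Nr4a3 was too low to pass the count filter in the fit of all classes. With no filter on low counts, spiny neurons were above astrocytes and oligodendrocytes by 3.35 on the log2 scale (SE 0.40, edgeR adjusted p 1.02e-15), where 43.1% of 18686 genes were called. MHC class II cells were above them by 3.44 (SE 0.79, edgeR adjusted p 0.000151, 19.1% of genes called). Endothelial cells were not separated from those glia for Nr4a3 (0.19, 95% interval -1.99 to 2.37, adjusted p 1). Microglia held Nr4a1 at 43.3 to 142 CPM and 0 UMIs of both Nr4a2 and Nr4a3.

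Nr4a2 had another distribution. Of its 239 UMIs in 111 cells, 128 (53.6%) lay in 30 of the 284 glutamatergic neurons, a class of 53, 147 and 84 cells. Their level was 230, 36.3 and 114 CPM (127 ± 97.5), in 28.3%, 3.40% and 11.9% of the cells. Library 1 was the highest and library 2 the lowest, and after thinning the shares were 17.8%, 1.36% and 2.38%. Nr4a2 was concentrated in single cells: the highest neuron held 4, 12 and 21 UMIs in libraries 1 to 3, and 11 of the 30 positive cells had 1 UMI. For comparison, 43 of the 73 glutamatergic neurons with Nr4a1 and 22 of the 25 with Nr4a3 had 1 UMI. The level of Nr4a2 in glutamatergic neurons was known when the gene was chosen and is given with no test.

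Spiny neurons were nearly empty of Nr4a2, with 9 UMIs in 9 cells, of 1908 D1 and 1109 D2 cells. Their level was 0, 0.732 and 1.78 CPM in D1 and 0, 0.927 and 2.81 CPM in D2 cells, in the range of oligodendrocytes (0, 0.746 and 0.789) and astrocytes (0, 0 and 2.88). The level of Nr4a2 in spiny neurons overlapped with that of both glial classes. Other neurons without a subclass had 27.2, 6.02 and 12.5 CPM of Nr4a2. Microglia, OPC, T cells and fibroblasts held 0 UMIs.

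Outside neurons, Nr4a2 appeared in endothelial cells and in myeloid cells with MHC class II. Endothelial cells had 20.8, 20.8 and 26.8 CPM (22.8 ± 3.47), in 2.58%, 3.52% and 6.90% of cells. They were above astrocytes and oligodendrocytes by 4.39 on the log2 scale (SE 0.73, edgeR adjusted p 2.87e-07, 34.4% of 10895 genes called). The gate itself requires endothelial markers and limits those of other classes, so the markers of the 17 positive cells are no check of their identity. Within that limit, a marker of the MHC class II list was present in 2 of 4, 3 of 7 and 2 of 6 of them, and in 15.9%, 35.9% and 14.8% of the endothelial cells without Nr4a2. MHC class II cells had 13.5, 36.1 and 79.2 CPM from 2, 7 and 7 UMIs, in 0.935%, 4.42% and 12.1% of cells (1, 5 and 4 cells). In libraries 2 and 3 this share was no lower than that of glutamatergic neurons (3.40% and 11.9%). Library 2 also had nearly the same CPM in both classes (36.1 and 36.3). MHC class II cells were above the same glia by 5.33 (SE 0.78, edgeR adjusted p 1.06e-08, 31.4% of genes called). Mural cells held Nr4a2 in 3 cells of library 2 only, with 0 UMIs in libraries 1 and 3.

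Cells with and without a Nr4a1 UMI were then compared within the same class and library, to see which other genes were found in the same spiny neurons. There were 34, 320 and 135 spiny neurons with Nr4a1 against 330, 1803 and 395 without. Of 8651 genes, 16 passed (0.185%), and all 16 were higher in the Nr4a1-positive cells. Nr4a3 was among them, with 63.0, 68.5 and 43.4 CPM against 14.7, 21.8 and 25.6 CPM (log2 difference 1.45, SE 0.22, edgeR adjusted p 0.0251). In cells, 5.88%, 17.8% and 14.8% of Nr4a1-positive neurons had a Nr4a3 UMI against 1.21%, 5.16% and 7.85% of the others. The groups did not overlap in CPM, but the 63.0 CPM of library 1 comes from 3 UMIs in 2 of 34 cells. The share of all genes without overlap was not computed.

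Of the 19 listed rapid immediate early genes, 14 passed the count filter and were tested. Of these 14, 8 rose (median log2 difference 1.20 against -0.01 over all genes). A gene could pass this filter through its level in the positive cells alone. Fos, the founding member of the AP-1 factors, had 42.0, 126 and 94.7 CPM against 9.80, 34.7 and 49.0 CPM (1.60, SE 0.19, edgeR adjusted p 0.0051). Egr4 rose by 1.48 (SE 0.10, adjusted p 9.44e-05), Junb by 1.22 (SE 0.08, adjusted p 7.38e-05), Egr2 by 1.84 and Fosb by 1.56. Arc, a synaptic protein made close to active synapses, rose by 1.19, the phosphatase Dusp1 by 1.07 and Egr1 by 0.88. Of the remaining 7 called genes, chosen for naming after their values were seen, Dusp6 (1.33) and Dusp14 (0.83) are phosphatases, Rgs2 (0.75) is a regulator of G protein signalling and Gadd45g (0.69) a stress and DNA repair gene. Arl4d rose by 1.01, Vim by 1.31 and Nupr1 by 1.06, the last in 2 of 3 libraries.

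None of the 7 late response genes tested passed (median 0.42). The 3 retinoid X receptors, the 12 genes of the calcium, CREB, MEF2 and SRF pathway and the 3 heat shock genes tested did not pass either. Among D1 neurons alone the rapid list had a median of 1.08 and among D2 neurons alone 1.10, with 3 genes passing in each. Nr4a3 was then higher by 1.22 (adjusted p 0.595) and 1.65 (adjusted p 0.129). Nr4a1-positive cells were deeper (median 1420, 3082.5 and 3061 UMIs against 1193, 2614 and 2776) and more often D2 cells in libraries 2 and 3 (47.8% and 48.9% against 30.7% and 38.5%). With equal numbers of cells matched on UMIs, 7 rapid genes and Nr4a3 (1.55, adjusted p 0.0279) still passed. Astrocyte markers summed to 199 to 220 CPM in the positive and 191 to 243 CPM in the negative cells, and oligodendrocyte markers to 178 to 204 against 149 to 222. The edgeR count fell to 0 without library 2 or without library 3 (275 and 495 genes at an unadjusted p under 0.05) and was 42 without library 1. DESeq2 called 7 genes.

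**Figure D2:**
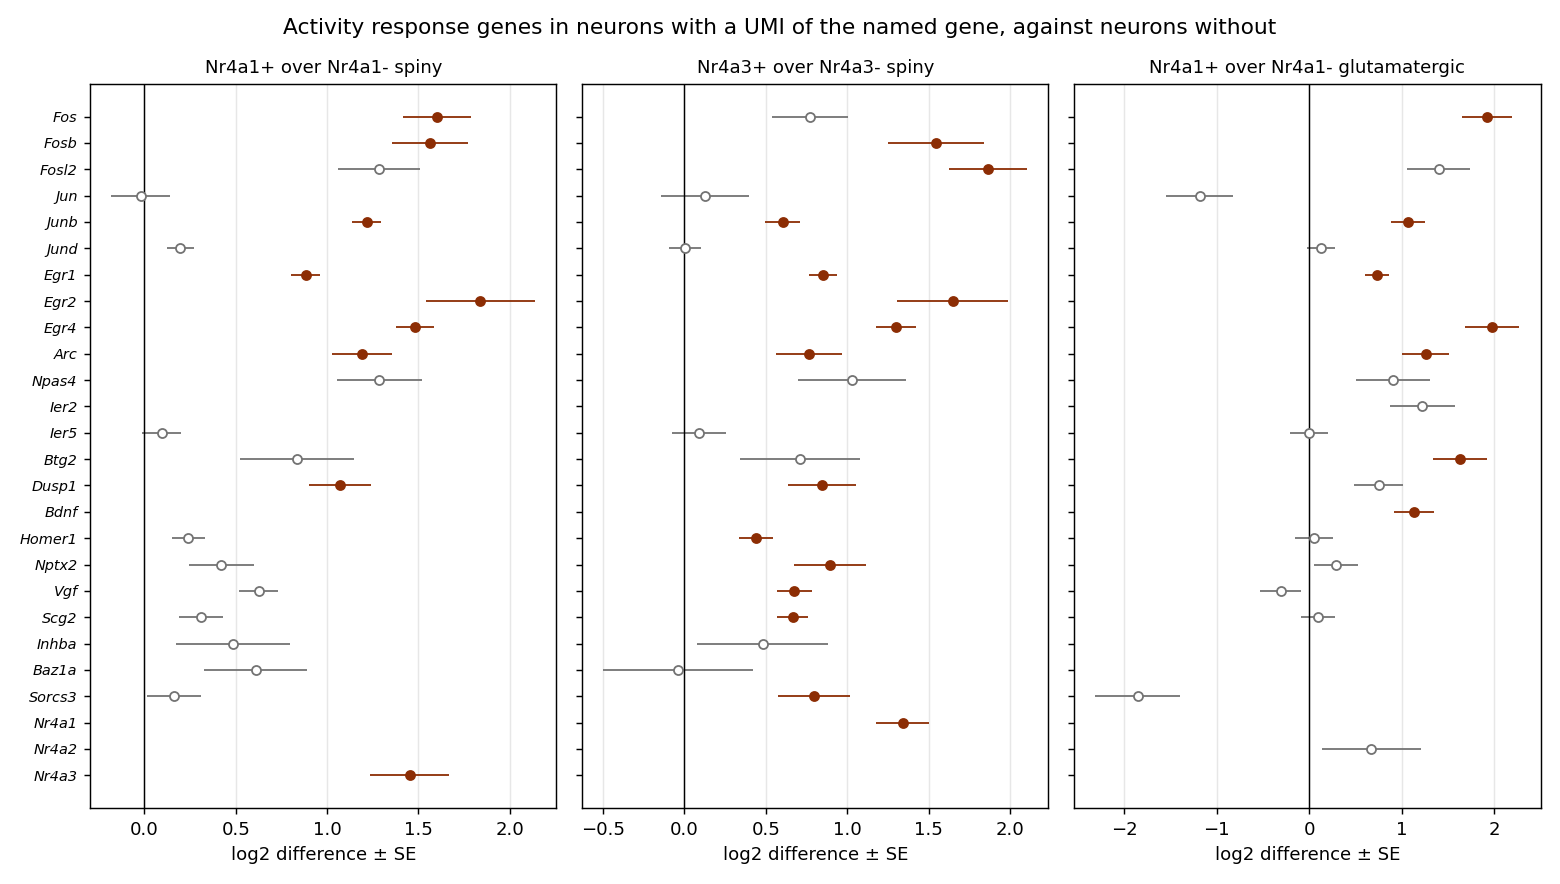
Log2 difference with its standard error (horizontal axis) of rapid and late activity genes and the Nr4a genes between neurons with and without a UMI of Nr4a1 or Nr4a3, in spiny and glutamatergic neurons; filled points passed an edgeR adjusted p of 0.05 and a missing point means that the gene was not tested. Egr1, Egr4, Junb and Arc passed in each of the 3 panels, and 5 late genes (Homer1, Nptx2, Vgf, Scg2 and Sorcs3) passed in the Nr4a3 panel.

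Nr4a3-positive spiny neurons (150 and 51 cells in libraries 2 and 3) were compared with the 1973 and 479 cells without Nr4a3. Library 1 had 6 such cells and was left out by the minimum of 10. Of 9484 genes 60 passed (0.633%), 45 of them higher (0.474%). Nr4a1 had 209 and 165 CPM against 65.0 and 105 CPM (log2 difference 1.34, SE 0.16, edgeR adjusted p 2.64e-13), and a UMI in 38.0% and 39.2% of cells against 13.3% and 24.0%.

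In these cells 8 of 14 rapid genes and 5 of 7 late genes rose, with medians of 0.81 and 0.67 against -0.02 over all genes. The late genes were Scg2 and Vgf, which are secretory granule proteins (0.67 and 0.68), Nptx2, a secreted pentraxin of excitatory synapses (0.90), Homer1, a postsynaptic scaffold (0.44), and the sorting receptor Sorcs3 (0.80). The genes with the largest rise were Shisa2 (2.37), the AP-1 member Fosl2 (1.87), Egr2 (1.65), Fosb (1.55) and the elongation factor Ell2 (1.51). Egr4 (1.30), Egr1 (0.85), Dusp1 (0.85), Arc (0.77) and Junb (0.60) also rose, as did Car12 (0.70), a carbonic anhydrase from the claustrum list. Lowered genes included Hmox1 (-1.75), Psme2 (-1.57), Lrpprc (-1.25) and the interferon-stimulated Isg15 (-0.98). The mCherry feature was lower by 1.41 (141 and 56.9 CPM against 171 and 686 CPM). However, 5 spiny neurons held 62.2% of its 2286 UMIs, the highest 1029, and with cells matched on UMIs the difference was 0.25.

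Whether late genes went with Nr4a3 more than with Nr4a1 was not tested. The calls of the late genes depended on the setting. Of 12 settings, Scg2 and Vgf passed in 8, Homer1 and Nptx2 in 5 and Sorcs3 in 4. The Nr4a3 split rests on 2 libraries and its count moved with the settings: DESeq2 called 4 genes, matched cells gave 28, D1 neurons alone 3 and D2 neurons alone 10. Nr4a1 passed in D2 neurons alone and missed the threshold in D1 neurons alone (1.07, adjusted p 0.369), and the difference between them was not tested.

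Cells with and without Nr4a1 were also compared among glutamatergic neurons. The split held 36 and 33 positive against 111 and 51 negative cells in libraries 2 and 3, since library 1 had 4 positive cells. Of 6070 genes 9 passed (0.148%), and 8 of them rose (0.132%). Fos had 185 and 205 CPM against 37.6 and 68.0 CPM (log2 difference 1.92, SE 0.27, edgeR adjusted p 0.000288). Egr4 rose by 1.98, the antiproliferative gene Btg2 by 1.63, Gadd45g by 1.57, Arc by 1.26, Junb by 1.07 and Egr1 by 0.74, so that 6 of 13 rapid genes passed (median 1.07 against 0.00). Of 6 late genes only Bdnf, the neurotrophin, passed (1.13). Serpini1, a neuronal protease inhibitor, was lower by 0.75.

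Nr4a3 was found in 7 of 36 and 6 of 33 Nr4a1-positive glutamatergic neurons against 4 of 111 and 3 of 51 of the others. It was below the count filter, and with no filter it differed by 1.76 (SE 0.53, edgeR adjusted p 0.919). Nr4a2 did not pass either: it had 94.7 and 106 CPM against 13.2 and 120 CPM (0.67, 95% interval -0.38 to 1.73, edgeR adjusted p 0.974). It was found in 3 of 36 and 4 of 33 Nr4a1-positive cells against 2 of 111 and 6 of 51 of the others. In library 1, which was not in the fit, it was found in 3 of 4 against 12 of 49. In library 2 a single cell with 12 UMIs made up most of the 20 Nr4a2 UMIs of the positive group. DESeq2 called 0 genes in this split (10 at an unadjusted p under 0.05), as did edgeR with no filter on low counts (413).

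The Nr4a2-positive glutamatergic neurons were 15, 5 and 10 cells, against 38, 142 and 74 without. With so few cells a gene could pass the count filter through its level in the positive cells alone, so the lists are given over every measured gene. The 19 rapid immediate early genes summed to 1694, 1598 and 2339 CPM in the positive and 1766, 2049 and 2478 CPM in the negative cells, lower in each library. Singly, Ier2 was higher and Btg2, Fosl2 and Junb were lower in all 3 libraries. The 9 late response genes summed to 884, 775 and 1332 against 785, 995 and 853 CPM, higher in libraries 1 and 3 and lower in library 2. Among them Vgf and Sorcs3 were higher and Nptx2 was lower in every library. In the fit, 6 late and 7 rapid genes passed the filter, and none of either list passed the test. Their median differences are not compared, since the filter may have favoured genes that were high in the positive cells. Nr4a1 differed by 0.24 (95% interval -1.31 to 1.78, edgeR adjusted p 0.987). Nr4a3 was found in 0 of 15, 1 of 5 and 1 of 10 of them. A list of genes of the claustrum and endopiriform nucleus, deep forebrain structures whose glutamatergic neurons express Nr4a2, summed to 1731, 1428 and 1315 against 1006, 221 and 215 CPM over its 9 measured genes, without overlap. Of the 9, 6 were higher in the positive cells in all 3 libraries and none was lower in all 3. A rise in every library was not particular to this list. Of 6 heat shock genes, 3 were higher and 1 was lower in all 3 libraries. They summed to 2468, 2324 and 1923 CPM in the positive against 2318, 2029 and 1603 CPM in the negative cells. The shares of all genes that moved alike in all 3 libraries, or did not overlap, were not computed for this split. These counts therefore have no background. No single gene passed in this small split of libraries 1 and 3 (0.0% of 2495 genes by edgeR, 98 at an unadjusted p under 0.05, and 0 by DESeq2 with 22).

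Rgs12, a regulator of G protein signalling, had a UMI in 6 of 15, 3 of 5 and 8 of 10 Nr4a2-positive cells against 2 of 38, 8 of 142 and 2 of 74 others. Its level was 405, 121 and 117 CPM against 24.5, 11.4 and 3.67 CPM. The synaptic vesicle protein Synpr had 258, 412 and 325 CPM against 12.3, 54.2 and 34.8 CPM. When arms of at least 5 cells were admitted, a choice made after the data were seen, all 3 libraries entered. Synpr then passed together with tTA, Hes1 and Brinp2 (higher) and Nrxn3 (lower), 5 of 2307 genes (0.217%). In this fit, too, a gene could pass the count filter through its level in the positive cells alone. These calls are therefore no support for the claustrum list. The tTA feature belongs to the FLiCRE construct, and 5 glutamatergic neurons held 41.4% of its 157 UMIs. Oprk1, the kappa opioid receptor, was found in 4 of 15, 1 of 5 and 5 of 10 cells against 6 of 38, 2 of 142 and 0 of 74. Lxn was found in 1, 4 and 5 of them against 0, 18 and 5 others, and Gnb4 in 2, 1 and 9 against 4, 12 and 8. Gng2, a G protein subunit, had 331, 387 and 199.8 CPM against 319, 81.2 and 84.4 CPM, near the other cells in library 1 and above them in libraries 2 and 3. Nfib was found in 5, 2 and 9 of the positive against 23, 9 and 13 of the other cells, a lower share in library 1 and higher shares in libraries 2 and 3. Ntng2 had 0 UMIs in the positive and the negative cells, Car12 was found in 2, 0 and 4 against 2, 2 and 0 cells, and Smim32 was not measured.

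The 6 listed genes of layer 6 corticothalamic neurons summed to 73.7, 533 and 66.6 CPM in the positive against 613, 701 and 983 CPM in the negative cells. Rprm, which made up most of the level of the negative cells in libraries 2 and 3, was the one gene of the list that was lower in all 3 libraries. It was present in 0 of 15, 1 of 5 and 1 of 10 Nr4a2-positive cells, at 0, 24.2 and 8.32 CPM, against 6 of 38, 90 of 142 and 43 of 74 others, at 85.9, 581 and 928 CPM. Crym was found in 1 of 15, 3 of 5 and 1 of 10 positive against 12 of 38, 29 of 142 and 5 of 74 other cells, and Tle4 in 0, 4 and 2 against 6, 30 and 16, a lower share in library 1 and a higher one in library 2 for both.

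Layer 6b is another cortical layer with Nr4a2, and its 6 listed markers summed to 73.7, 1041 and 83.2 CPM in the positive against 110, 44.2 and 91.7 CPM in the negative cells. Only library 2, with 5 positive cells, was far apart. Of the 6, 1 gene was higher and 1 was lower in all 3 libraries. Moxd1 and Svil, also on the list, are not given singly. Tmem163 was found in 1 of 15, 3 of 5 and 3 of 10 positive against 1 of 38, 3 of 142 and 3 of 74 other cells, a higher share in each library. Ctgf was found in 0, 2 and 2 against 1, 3 and 5 cells, Nxph4 in 0, 2 and 2 against 2, 1 and 3, and Cplx3 in 0, 2 and 0 against 3, 1 and 1. In library 2 as many of the 5 positive cells thus held Tmem163 as Rgs12. Nr4a2-positive cells were deeper in libraries 2 and 3 (medians of 7108 and 12877 UMIs against 4342 and 7284.5) and of the same depth in library 1 (1844 against 1837), and the part of depth was not tested.

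**Figure D3:**
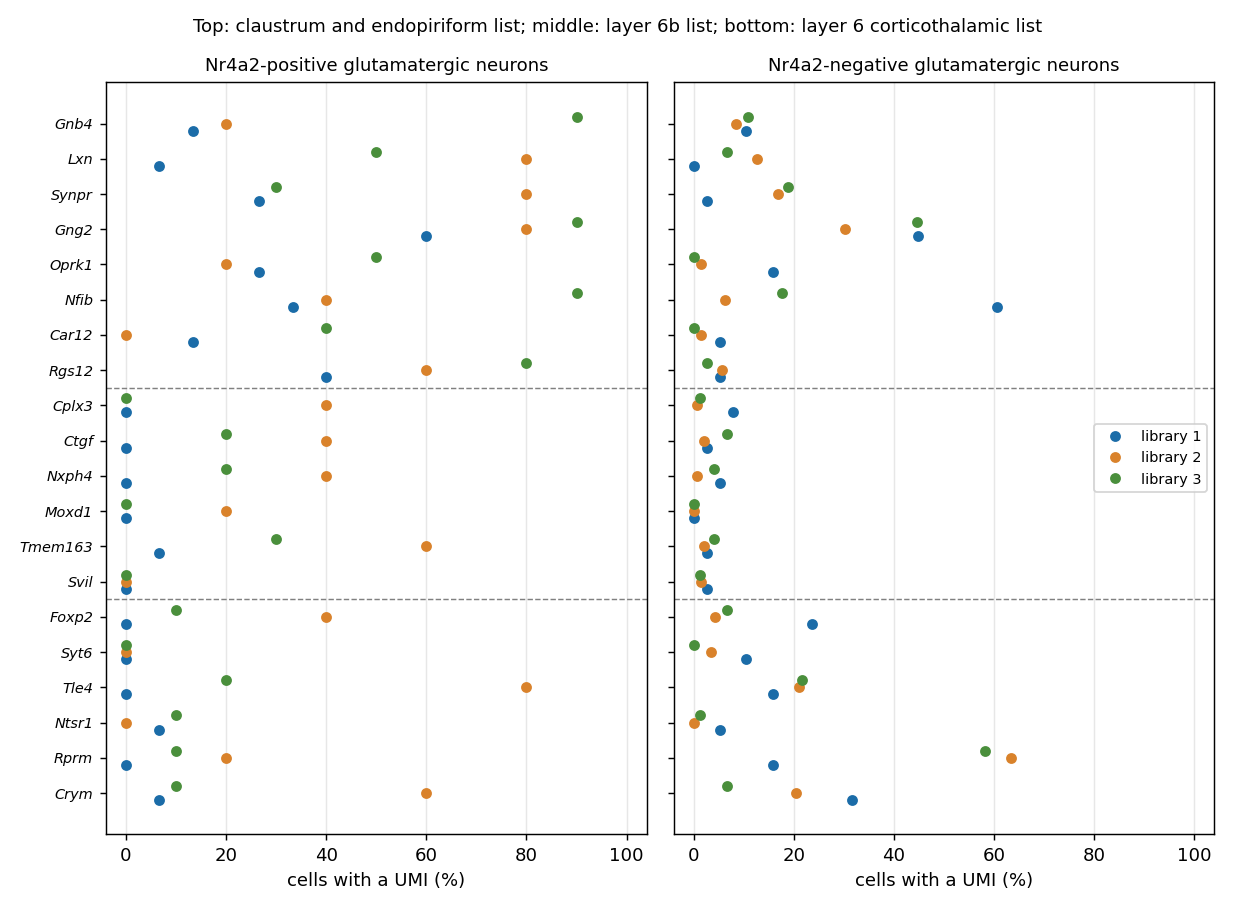
Share of Nr4a2-positive (left; 15, 5 and 10 cells in libraries 1 to 3) and Nr4a2-negative (right; 38, 142 and 74 cells) glutamatergic neurons with a UMI of each listed gene (horizontal axis, percent), each point 1 library. Rgs12 and Synpr are higher on the left in every library, while Rprm is in at most 1 of 5 cells on the left and reaches 63.4% on the right.

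Cells were divided in the same way by a mCherry UMI. Such a UMI does not by itself show a labelled cell. It was found in 13.2%, 21.8% and 16.7% of glutamatergic neurons, 5.22%, 14.9% and 15.5% of astrocytes and 0.730%, 10.2% and 2.63% of oligodendrocytes, at median depths of 1844, 4380 and 7740.5, of 1670, 2268 and 3565.5, and of 952, 2153 and 4128.5 UMIs. In spiny neurons the shares were 6.67%, 23.4% and 16.03% of D1 and 5.43%, 18.2% and 9.63% of D2 cells, both above the astrocytes in libraries 1 and 2, while in library 3 D2 cells were below them. In CPM, glutamatergic neurons (73.6, 63.3 and 22.5) were above astrocytes (27.8, 71.4 and 44.6) in library 1 and below them in libraries 2 and 3. A single UMI was all that 6 of 7, 28 of 32 and 13 of 14 of these glutamatergic neurons had. Cells with a mCherry UMI are called mCherry-positive. Glutamatergic neurons held 7, 32 and 14 mCherry-positive and 46, 115 and 70 mCherry-negative cells, and libraries 2 and 3 entered the fit. Nr4a2 was higher in the mCherry-positive cells by 1.32 (SE 0.32, edgeR adjusted p 0.0204, 17 of 6333 genes called, 0.268%, and 0.205% as higher). Its level was 225, 53.6 and 234 CPM against 231, 29.7 and 80.7 CPM, and it was found in 2 of 7, 3 of 32 and 5 of 14 mCherry-positive against 13 of 46, 2 of 115 and 5 of 70 mCherry-negative cells. The groups were thus alike in library 1 and apart in libraries 2 and 3. A single mCherry-negative cell held 21 of the 42 UMIs of library 3. The call did not hold with cells matched on UMIs (0.18, adjusted p 1), when library 1 entered with arms of at least 5 cells (0.99, adjusted p 0.712) or with DESeq2 (1.23, adjusted p 1). The median depth of mCherry-positive cells was 3207, 5401 and 9590 UMIs, and that of mCherry-negative cells 1750, 4246 and 6826.5.

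With Nr4a2, the mCherry-positive glutamatergic neurons were higher in the peptide Adcyap1 (2.22), the nuclear factors Nfib (1.98) and Nfia (1.72), 3110035E14Rik (1.79) and Nov (1.73), and lower in Rab3b (-2.35), Cartpt (-1.59), Ntng1 (-1.25) and Nwd2 (-1.20). For Nr4a1 neither neuron type gave a call. In glutamatergic neurons it had 89.9, 63.4 and 34.4 CPM in mCherry-positive against 23.1, 81.8 and 115 CPM in mCherry-negative cells (-0.92, 95% interval -1.65 to -0.20, edgeR adjusted p 0.628). In spiny neurons (22, 461 and 71 mCherry-positive against 342, 1662 and 459 mCherry-negative) Nr4a1 had 95.2, 62.8 and 79.1 against 89.5, 81.3 and 119 CPM (-0.38, SE 0.14, adjusted p 0.628, 0.0443% of 9039 genes called, which was 4 genes, 70 without library 1 and 0 without library 2 or 3). Nr4a1 was higher in mCherry-positive cells in library 1 and lower in libraries 2 and 3 in both neuron types. The library 1 values rest on few counts: 2 UMIs in each glutamatergic group, and 3 UMIs in the 22 mCherry-positive spiny neurons. Nr4a3 in spiny neurons had 0, 31.1 and 21.3 against 21.2, 29.3 and 32.5 CPM (-0.02, 95% interval -0.48 to 0.44, adjusted p 0.988), and its 0 in library 1 comes from 22 cells. In these edgeR fits none of the rapid immediate early genes tested passed in mCherry-positive spiny or glutamatergic neurons. Cxcl14, a chemokine, was the only called gene lowered in mCherry-positive spiny neurons in all 3 libraries (-0.96, adjusted p 0.0388).

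**Figure D4:**
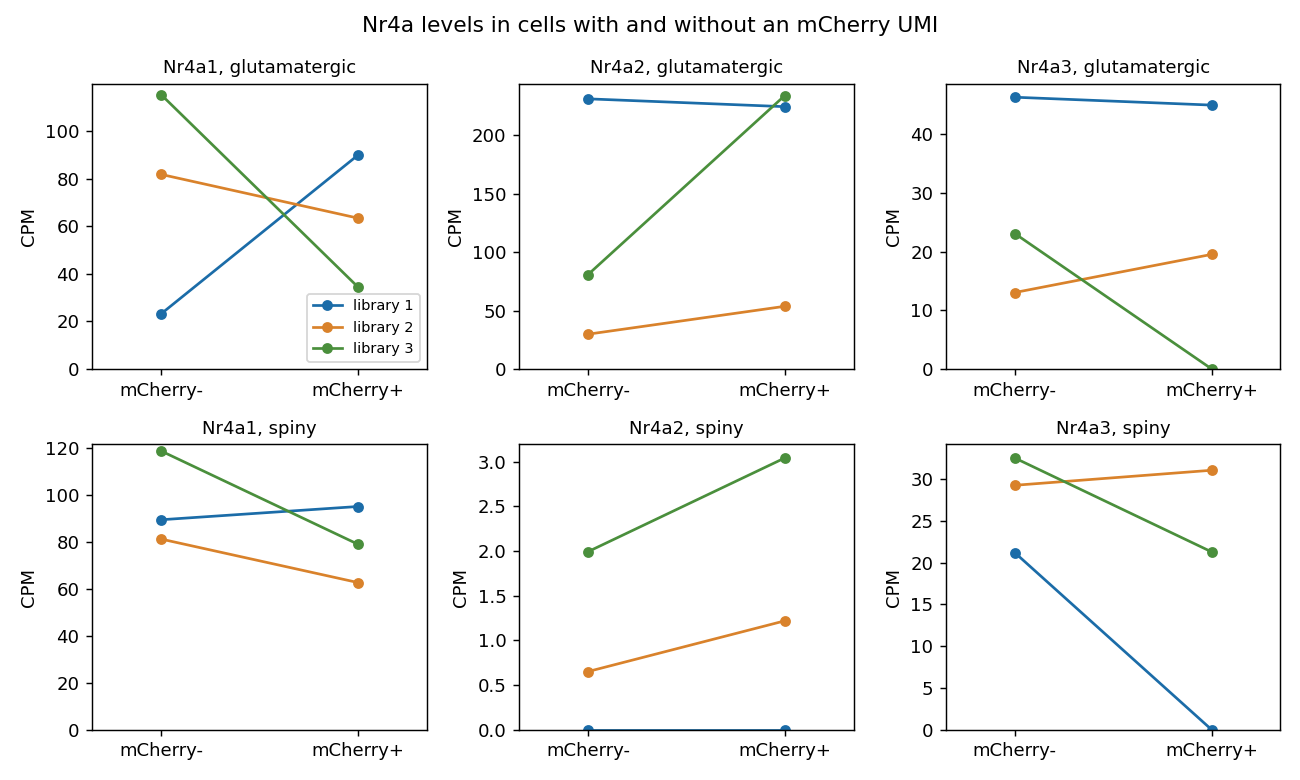
Levels of Nr4a1, Nr4a2 and Nr4a3 (vertical axis, CPM) in glutamatergic (top) and spiny (bottom) neurons without (left of each panel) and with (right) a mCherry UMI; a line joins the 2 values of a library. Nr4a2 in glutamatergic neurons goes from 29.7 to 53.6 and from 80.7 to 234 CPM in libraries 2 and 3 and from 231 to 225 in library 1, and Nr4a2 in spiny neurons stays at or below 3.04 CPM.

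Across the 30 sums of 10 classes and 3 libraries, the level of Nr4a1 was most like that of Limd2 (Pearson r of log2(CPM + 10) 0.84), Ptprj (0.82), Mef2a (0.81), Tra2a (0.80) and Srpk1 (0.79). Nr4a2 was most like Rtn4r (0.75), Tuba1b (0.75), Mdp1 (0.74), Gm11549 (0.73) and Neurod6 (0.72), which is a marker in the glutamatergic gate. Nr4a3 was most like Cd47 (0.91), Noc2l (0.89), Cacna1b (0.89), Cers6 (0.88) and Sms (0.88). Among the 3 receptors, Nr4a1 and Nr4a3 had an r of 0.59, Nr4a2 and Nr4a3 of 0.41, and Nr4a1 and Nr4a2 of 0.21. These are descriptions over sums that share libraries and depth, compared for 10134 genes.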

How the data were processed

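Whole UMI counts per gene and cell were deposited by the authors as 1 pooled matrix, from 10x 3′ v2 libraries (per the labels) processed with Cell Ranger 3.0 on mm10 (per the submitters' processing notes). Counting parameters and the treatment of doublets are not given in the sources used here. The barcode suffix separates 3 libraries, and nothing ties a suffix to a numbered sample. The labels do not say that the libraries came from separate animals, so variation between libraries may be technical. Both sides of every comparison came from the same libraries, so the library was a block in each fit. The p-values thus rest on how class or arm differences varied between libraries, and on a spread shared over genes. That sharing weighs most in the splits on 2 libraries, which left 1 residual degree of freedom.

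A cell needed 300 detected genes and a mitochondrial share no higher than 20% (10291 of 11625 cells). Scrublet (scanpy 1.11.5) marked 76 cells by its automatic threshold, so the highest scores were removed instead, at 0.8% per 1000 cells (368 cells). A cell joined the class with at least 3 of its markers detected and 2 more than any other panel, and neurons then a subclass with at least 2. Counts were summed per library and class for sums of at least 10 cells and compared with edgeR 4.0.16 in R 4.3.3 (TMM, filterByExpr, robust quasi-likelihood test, Benjamini-Hochberg over all genes tested, threshold 0.05). The gene used to divide cells was left out of its own split. The test was checked on simulated counts with 200 changed genes. The low totals (1414, 239 and 410 UMIs of Nr4a1, Nr4a2 and Nr4a3) limit the precision of every level.

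Named genes are the 3 receptors, in each direction the 5 genes, or fewer, of largest difference that passed and moved alike in all libraries, and every listed gene that passed. The 3 receptors and all gene lists were chosen with earlier results of these data known, and so were the edgeR settings. Alternatives were DESeq2 1.42.0, the package-default prior, no filter, no library block, stricter gates, cells of at least 1000 UMIs, cells matched on UMIs, cells thinned to 1000 UMIs, no doublet removal and leaving out each library. Promoter windows came from RefSeq (GRCm38.p6), where all 3 symbols matched, and gene models from GENCODE M21.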

Additional observations from a re-analysis of the deposited data

How the results depend on the processing

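Of the differences of the Nr4a genes and the other named genes, 130 and 278 kept their direction and their side of the threshold under an alternative, 17 and 224 kept their direction and lost the call, and 3 and 1 changed sign. The cause was not tested for any of them. Nr4a1 in D1 against D2 spiny neurons passed only with the classes compared (-0.80). Nr4a1 in vascular cells was 1.04 (adjusted p 0.0821) for endothelial cells against astrocytes and oligodendrocytes with no filter, and 0.95 to 1.52 over the fits that left out a library. Nr4a3 in Nr4a1-positive spiny neurons lost its call in D1 (1.22) and D2 (1.65) neurons alone, with DESeq2 (1.36), with no library block (1.40), and without library 2 (0.91) or 3 (1.68). Nr4a1 in Nr4a3-positive spiny neurons lost it in D1 neurons alone (1.07), with DESeq2 (1.22) and with no library block (1.17). Nr4a2 in mCherry-positive glutamatergic neurons lost it with arms of at least 5 cells (0.99), DESeq2 (1.23), cells matched on UMIs (0.18), no filter (1.25), no library block (1.29) and the strict gate (0.74). Nr4a3 in mCherry-positive spiny neurons, near 0, changed sign with no doublet removal (0.0293) and the strict gate (0.15), and went from -0.0044 to 0.0746 over the fits that left out a library, and mCherry in Nr4a3-positive spiny neurons with matched cells (0.25).

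Counts of called genes moved more than the differences. For Nr4a1 in spiny neurons, 16 became 4 in D1 and 4 in D2 neurons alone, 7 with DESeq2, 29 with no filter, 53 with the package-default prior, 31 with the strict gate and 0 to 42 over the fits that left out a library. For Nr4a3, 60 became 25 with arms of at least 5 cells, 3 and 10 in D1 and D2 neurons alone, 4 with DESeq2, 28 with matched cells, 18 with no filter and 34 with the strict gate. For Nr4a2 in glutamatergic neurons, 0 became 5 with arms of at least 5 cells. For Nr4a1 in glutamatergic neurons, 9 became 0 with DESeq2 and with no filter, 14 with the package-default prior and 17 with the strict gate. In mCherry-positive glutamatergic neurons 17 became 2 with arms of at least 5 cells, 5 with matched cells and 0 with DESeq2 (16 at an unadjusted p under 0.05) and with no filter (425). In mCherry-positive spiny neurons 4 became 70 without library 1, 0 without library 2 (333) or 3 (327), 0 with DESeq2 (24) and matched cells (155), 27 with no filter, 17 with the default prior and 1 with no doublet removal or the strict gate. The rapid genes that passed with Nr4a1 in spiny neurons were 5 with DESeq2 and 0 without library 2 or 3. With Nr4a3 they were 2 with DESeq2 and in D1 neurons alone, 3 in D2 neurons alone, and 5 with matched cells or no filter. In mCherry-positive spiny neurons 1 rapid gene passed with no filter, with the default prior or without library 1. Without the replicate block, which here is the library, each of the splits called 0 genes by edgeR (83, 143, 51 and 102 at an unadjusted p under 0.05 in the order above). The block pairs the 2 sums of a library by design.

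Leaving out a library was not run for the splits that rest on 2 libraries, since no residual degrees of freedom remain. Nr4a2-positive spiny neurons were too few to fit, and matched cells and the strict gate gave no fit for Nr4a2 in glutamatergic neurons. The fitted difference of Nr4a2 between vascular cells and macroglia, 4.93, includes OPC at 0 UMIs and is no bound. Of 384 levels recomputed, 6 moved by more than 1 SD, among them the shares with Nr4a3 in D1 spiny (1.55% after thinning) and glutamatergic neurons (2.61%).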
